A study of Homo sapiens with 12 samples.

Results

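The 10 genes described here encode the machinery that makes and delivers peptides for MHC class I molecules. They are the immunoproteasome subunits PSMB8, PSMB9 and PSMB10, the proteasome activator subunits PSME1 and PSME2, the transporter subunits TAP1 and TAP2, the loading factor TAPBP, and the trimming peptidases ERAP1 and ERAP2. They were taken by symbol from a deposited table of 56832 genes, and all 10 were found and passed the level filter, a mean of 1 or more in either genotype in the deposited unit TPM (length-scaled transcript abundance), as did 17367 genes in all. The cells were DU145, an established human prostate cancer line that grows without androgen, kept in RPMI with 10% FBS. RNA-seq libraries were made from 6 lines, each from 2 biological replicates that the labels place in batch 1 and batch 2. The 3 RAC1-positive lines were the parental cells and sgNTC clones 1 and 2, which had been given Cas9 with the non-targeting guide sgNTC_1. The 3 RAC1 knockout lines were sgRAC1 clone 1, made with guide sgRAC1_1, and sgRAC1 clones 2 and 3, made with guide sgRAC1_2. Each clone grew from a single cell, so a clone's own history and its genotype cannot be told apart within 1 line, and the parental cells did not pass through cloning. RAC1 encodes a small GTPase of the actin cytoskeleton, and the series title places the lines in work on RAC1 responses to EGFR through VAV2.

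Most cellular proteins are degraded by the proteasome, whose barrel-shaped core carries its active sites on the subunits PSMB5, PSMB6 and PSMB7. Interferon-gamma induces PSMB8, PSMB9 and PSMB10, which replace these subunits one for one in newly assembled cores and shift cleavage towards peptides that fit MHC class I grooves. PSME1 and PSME2 form a ring that opens the core, TAP1 and TAP2 pump peptides into the endoplasmic reticulum, TAPBP (tapasin) holds the empty class I molecule at the pump, and ERAP1 and ERAP2 trim peptides to their final length there. Many epithelial tumours have low levels of some of these genes, and tumour cells that present fewer peptides are less visible to T cells.

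All libraries gave TPM values that sum to 1000000, so the depth of each library is unknown. RAC1 averaged 46.2 ± 9.14 TPM over knockout line means and 172 ± 4.60 TPM over RAC1-positive ones (SD, n = 3 each), and its 6 knockout libraries (36.5 to 59.2 TPM) lay below all 6 others (149 to 202 TPM). One library stood apart: 13608 genes were above 0 in sgNTC clone 2 replicate 1 against 20470 to 25156 in the other 11. Results that rest on it are given with and without it. The epithelial genes KRT8, KRT18, KRT19, EPCAM and CDH1 were present in every library. The luminal prostate markers KLK3 and TMPRSS2 were listed at 0 in all 12 libraries.

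PSMB8, PSMB9, TAP1 and TAP2 lie side by side in the class II region of chromosome 6. In GENCODE 29 on GRCh38 these are TAP2 at chr6:32821833-32838780, PSMB8 at chr6:32840717-32844703, TAP1 at chr6:32845209-32853978 (all on the minus strand) and PSMB9 at chr6:32844136-32859585 on the plus strand. The annotated span of PSMB9 covers TAP1 and reaches the first bases of PSMB8, and the antisense gene PSMB8-AS1 at chr6:32844086-32846495 overlaps all 3 of PSMB8, TAP1 and PSMB9. Whether reads were assigned by strand is not given in the labels or headers, so the levels of these overlapping genes are uncertain. TAPBP is at chr6:33299694-33314387, PSMB10 at chr16:67934502-67937087, PSME1 and PSME2 at chr14:24136158-24138967 and chr14:24143362-24147570, and ERAP1 and ERAP2 at chr5:96760810-96808100 and chr5:96875939-96919716.

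Because these genes are known interferon targets, their promoters were searched for 2 short motifs. The first, GAAA followed after any 2 bases by another GAAA, on either strand, is the core of the interferon-stimulated response element bound by IRF and STAT factors. Windows came from RefSeq (GRCh38.p14) and ran from 250 bases before to 50 bases after a transcript start. All 10 genes were matched, with 14 windows. The letters occurred in 9 of the 10 genes (9 of 14 windows), against 4.38% of 27305 symbols and 3.57% of 35116 windows overall. PSMB9 was the exception. One site per gene is shown with 10 bases on each side, on the gene's own strand, with the match in capitals (TTTC, 2 bases and TTTC is the same motif read on the other strand):
PSMB8: gatctgtggcTTTCGCTTTCacttcctcct
PSMB10: gggtaaaggcGAAAGCGAAAgcaggaagta
PSME1: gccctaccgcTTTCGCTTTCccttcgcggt
PSME2: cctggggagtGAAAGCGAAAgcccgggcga
TAP1: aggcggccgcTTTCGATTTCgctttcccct
TAP2: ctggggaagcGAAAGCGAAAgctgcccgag
TAPBP: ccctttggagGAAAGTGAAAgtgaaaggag
ERAP1: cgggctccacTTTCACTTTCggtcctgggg
ERAP2: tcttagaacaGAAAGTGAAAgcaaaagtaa
The PSMB8 match, at chr6:32844042-32844051, runs from position -4 to 6 around the transcript start, and the one of ERAP2, at chr5:96876470-96876479, from -30 to -21. In TAP1 (chr6:32853829-32853838, from -134 to -125) and TAPBP (chr6:33314089-33314098) a second copy overlaps the one shown. The matches were found in genes with large differences between genotypes (PSMB8, ERAP2) and in genes with small ones (PSME1, PSME2, TAP2). A match is a stretch of letters and not evidence of binding.

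The second motif, TTCNNNGAA, is the core of the gamma-activated site. It occurred in PSMB8 and TAP1 only, against 9.38% of symbols and 7.66% of windows. The windows of the 3 genes whose knockout and RAC1-positive libraries did not overlap, PSMB8, PSMB9 and ERAP2, and of TAP1, the neighbour of PSMB9, are printed from 250 bases before the start to 10 bases from it on, with matches of either motif in capitals. PSMB8, TAP1 and ERAP2 have 2 windows each in RefSeq, and the one printed is the one that holds the first motif. The TAP1 match of the second motif lies in its other window, at chr6:32852942-32852950, and is not in the stretch shown. The PSMB8 stretch is chr6:32844038-32844297 (minus strand), the TAP1 stretch chr6:32853695-32853954 (minus strand), the PSMB9 stretch chr6:32853942-32854201 (plus strand) and the ERAP2 stretch chr5:96876250-96876509 (plus strand):
PSMB8: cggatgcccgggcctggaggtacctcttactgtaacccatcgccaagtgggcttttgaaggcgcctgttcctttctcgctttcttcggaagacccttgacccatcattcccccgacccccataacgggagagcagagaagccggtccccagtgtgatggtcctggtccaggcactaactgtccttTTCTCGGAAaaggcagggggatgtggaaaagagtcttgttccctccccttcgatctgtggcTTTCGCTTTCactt
TAP1: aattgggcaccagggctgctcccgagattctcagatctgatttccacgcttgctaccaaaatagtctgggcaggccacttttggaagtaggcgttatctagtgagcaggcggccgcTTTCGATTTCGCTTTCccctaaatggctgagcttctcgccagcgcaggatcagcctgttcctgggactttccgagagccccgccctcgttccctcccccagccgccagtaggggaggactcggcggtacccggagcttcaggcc
PSMB9: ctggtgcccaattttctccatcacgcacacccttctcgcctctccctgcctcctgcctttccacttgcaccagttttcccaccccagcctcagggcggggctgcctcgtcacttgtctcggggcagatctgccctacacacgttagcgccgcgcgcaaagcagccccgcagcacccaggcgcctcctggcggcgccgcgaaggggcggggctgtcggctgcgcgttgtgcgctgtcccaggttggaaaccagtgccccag
ERAP2: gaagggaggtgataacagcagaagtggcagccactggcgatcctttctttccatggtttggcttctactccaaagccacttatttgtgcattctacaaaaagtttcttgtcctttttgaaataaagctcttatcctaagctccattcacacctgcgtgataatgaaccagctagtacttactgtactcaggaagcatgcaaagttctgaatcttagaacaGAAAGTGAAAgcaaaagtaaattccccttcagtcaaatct
TAP1 and PSMB9 are read in opposite directions from starts 488 bases apart, and their windows share 13 bases. The pair of overlapping matches in the TAP1 stretch ends 354 bases upstream of the PSMB9 start, outside the PSMB9 window.

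The transcript levels of all 10 genes were higher on average in the RAC1 knockout lines (TAP2 by a margin that changed sign in batch 2 alone and with some libraries left out), and none of these differences passed the test over lines. The test was limma on the mean of log2(TPM + 1) per line, 3 knockout against 3 RAC1-positive lines, with Benjamini-Hochberg adjustment over all 17367 genes at 0.05. In that test 0.00576% of genes passed, which is RAC1 alone. Without adjustment 4 of the 10 genes had p under 0.05, as did 2256 genes in all. The median difference of the 10 genes was 0.35 on the log2(TPM + 1) scale, and that of all genes kept was 0.02. In 5 genes (PSMB8, PSMB9, PSMB10, ERAP1 and ERAP2) all 3 knockout lines were above all 3 RAC1-positive lines, where 11.6% of all genes were. In 3 of them (PSMB8, PSMB9 and ERAP2) all 6 knockout libraries were above all 6 others, where 2.14% of all genes were. Both counts were the same without sgNTC clone 2 replicate 1, where the shares of all genes rose to 14.0% and 3.51%. p-values measure the spread between these clones and cultures, and in bulk RNA a higher level per cell and more cells with the transcript cannot be told apart.

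Taking the 12 libraries as the units, with line as a random effect, limma called PSMB8 and ERAP2 higher in the knockout lines, where 1.69% of all genes were called higher. Both calls held with the replicate number as a block and without sgNTC clone 2 replicate 1. In that fit the within-line correlation was estimated at -0.030, so libraries of 1 line counted as nearly independent samples of the genotype. The authors' deposited table calls 4 of the 10 genes, PSMB8, PSMB9, ERAP1 and ERAP2, higher at adjusted p 0.05, as it does 5.68% of its 15140 genes. The labels and headers do not say how that comparison weighted libraries and lines.

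**Figure D1:**
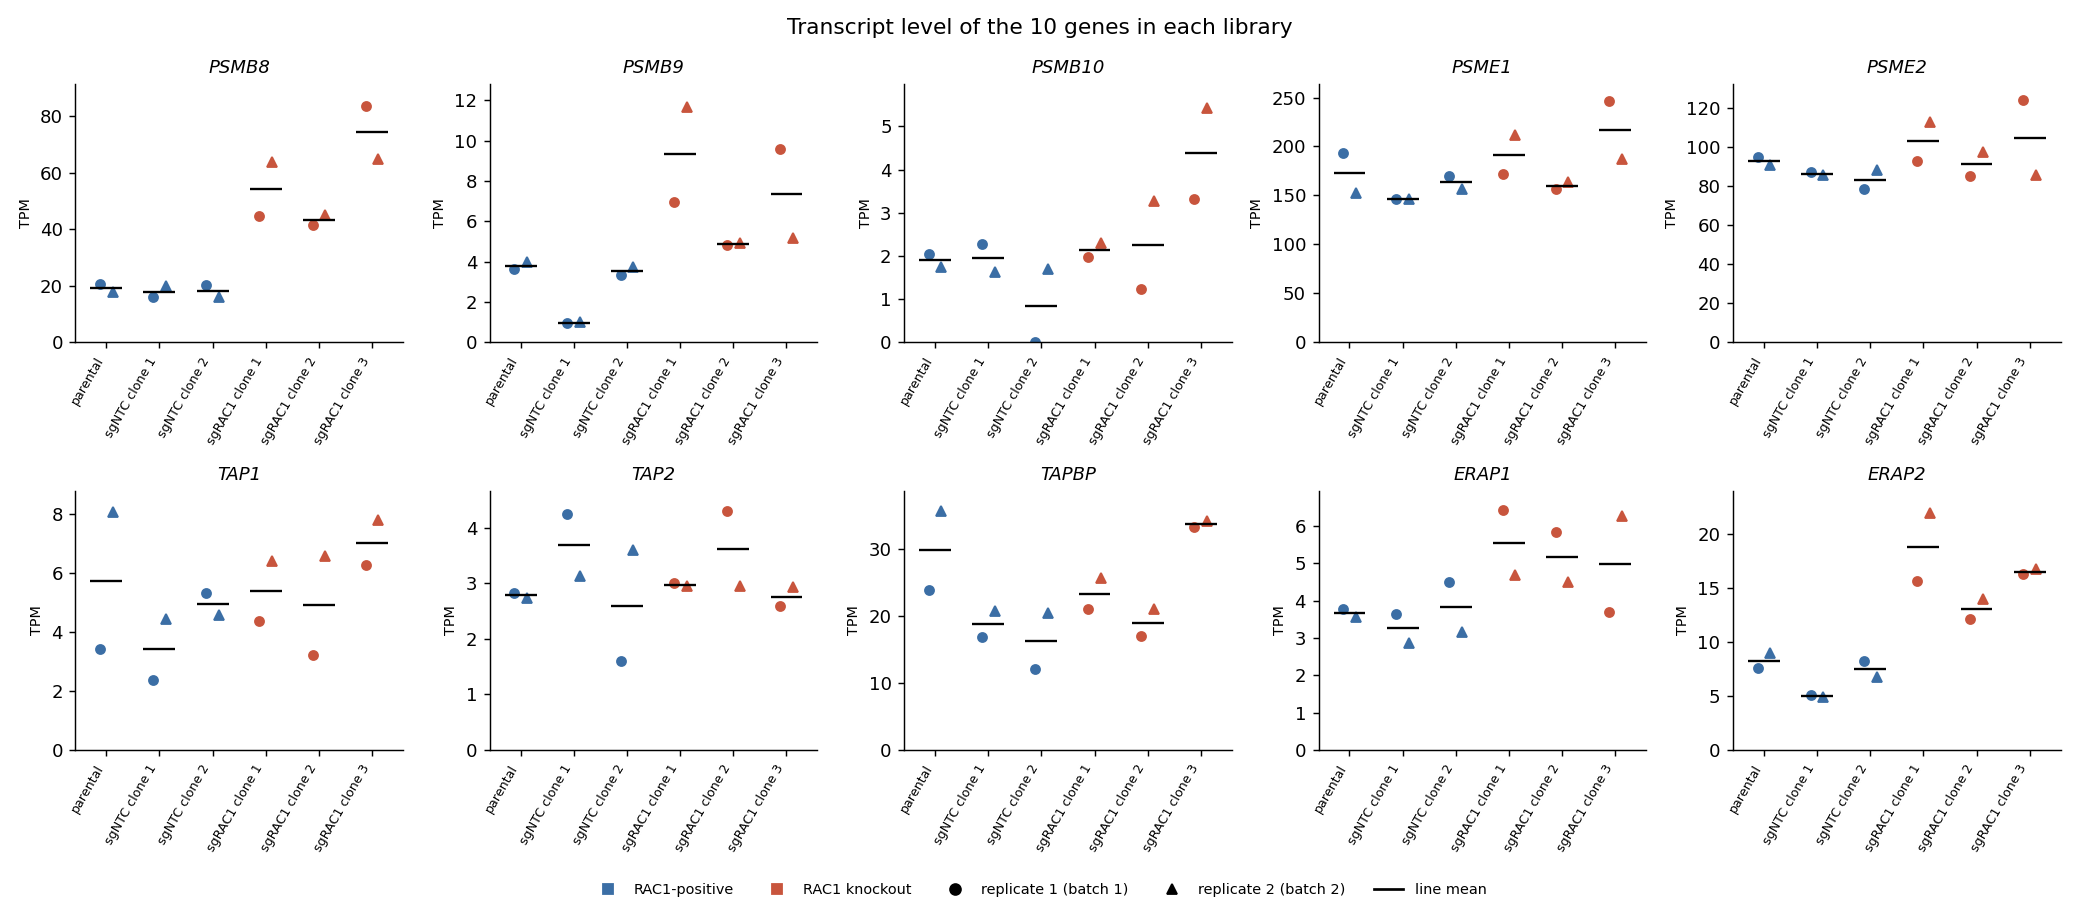
Transcript level (TPM, linear axes from 0) of the 10 genes in each of 12 libraries, by line, with replicate 1 as circles, replicate 2 as triangles and the line mean as a bar. PSMB8, PSMB9 and ERAP2 have every knockout library above every RAC1-positive library, and TAP1, TAP2 and TAPBP overlap between the genotypes.

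PSMB8, which encodes the inducible subunit that takes the place of PSMB5, had the largest difference of the 10 genes. It was at 20.5 and 17.7 TPM in the 2 parental libraries, 15.9 and 19.7 in sgNTC clone 1, and 20.4 and 16.1 in sgNTC clone 2. The knockout libraries were at 44.6 and 63.9 TPM in sgRAC1 clone 1, 41.4 and 45.1 in clone 2, and 83.8 and 64.8 in clone 3. The RAC1-positive libraries thus fell in a narrow band and the lowest knockout library was clearly above it. Line means were 57.2 ± 15.7 TPM against 18.4 ± 0.653 TPM (SD, n = 3 each), a difference of 1.55 (SE 0.19) on the log2(TPM + 1) scale. The limma adjusted p was 0.120 over line means and 7.98e-04 over libraries (0.00265 with the replicate block). The authors' deposited table gives a log2 fold change of 1.62 with adjusted p 1.51e-13. The difference was 1.46 in batch 1 and 1.63 in batch 2.

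PSMB9, the inducible counterpart of PSMB6, was lower overall and more uneven among the RAC1-positive lines. It was at 3.61 and 3.99 TPM in the parental libraries, 0.980 and 0.981 in sgNTC clone 1, and 3.33 and 3.74 in sgNTC clone 2. In the knockout libraries it was at 6.98 and 11.7 TPM in clone 1, 4.85 and 4.94 in clone 2, and 9.58 and 5.15 in clone 3. The groups did not overlap, but the lowest knockout library (4.85 TPM) was only slightly above the highest RAC1-positive one (3.99 TPM), and sgNTC clone 1 stood apart from the other 2 RAC1-positive lines in both batches. Line means were 7.20 ± 2.22 against 2.77 ± 1.56 TPM, a difference of 1.16 (SE 0.38) with limma adjusted p of 0.285 over line means and 0.0708 over libraries. The authors' deposited table lists a log2 fold change of 1.44 with adjusted p 0.00401. Batch 1 alone gave 1.21 and batch 2 alone 1.10. The difference was 0.75 with sgNTC clone 1 left out.

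PSMB10, the inducible counterpart of PSMB7, was close to the level filter. The RAC1-positive libraries ran from 0 through a median of 1.72 to 2.27 TPM and the knockout libraries from 1.24 through 2.79 to 5.43 TPM. The ranges overlapped, and the 0 came from sgNTC clone 2 replicate 1, the library with few genes above 0. The difference was 0.63 (SE 0.33, limma adjusted p 0.465), or 0.39 without that library, and the authors' deposited table gives 0.65 (adjusted p 0.427) at a mean of 7.18 normalized counts, the lowest of the 10 genes.

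Since the inducible subunits replace constitutive ones, each was also set against its counterpart, as a share and a ratio of the TPM averaged over the 2 libraries of a line. PSMB5, PSMB6 and PSMB7 were abundant in both genotypes, and none of the 3 passed in limma: PSMB5 was at 583 ± 46.6 TPM in knockout and 529 ± 36.0 in RAC1-positive lines, PSMB6 at 881 ± 110 and 896 ± 24.8, and PSMB7 at 889 ± 113 and 1019 ± 111. PSMB8 transcripts made up 8.90 ± 2.03% of the PSMB8 and PSMB5 total in knockout lines and 3.37 ± 0.260% in RAC1-positive lines (SD, n = 3 each). The PSMB9 share of its pair was 0.833 ± 0.346% against 0.311 ± 0.177%, and the PSMB10 share 0.341 ± 0.185% against 0.152 ± 0.0554%. In each pair the knockout lines were above the RAC1-positive lines (for PSMB10 not so without replicate 2 of sgRAC1 clone 1 or clone 2), and in each the constitutive transcript remained by far the larger.

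The log2 ratio of PSMB8 to PSMB5 was higher by 1.46 (SE 0.23) in knockout lines, that of PSMB9 to PSMB6 by 1.59 (SE 0.74) and that of PSMB10 to PSMB7 by 1.12 (SE 0.55). The PSMB10 values include the 0 of sgNTC clone 2 replicate 1: that line's share was 0.0894%, and 0.158% in its replicate 2 alone, and the log2 ratio difference was 0.84 without the library at 0. The two-sided exact permutation test over 6 line means gave p = 0.10 for each of the 3 ratios, before and after Benjamini-Hochberg adjustment over the 3. That is the smallest p that 3 lines against 3 can give, so no ratio could pass 0.05.

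**Figure D2:**
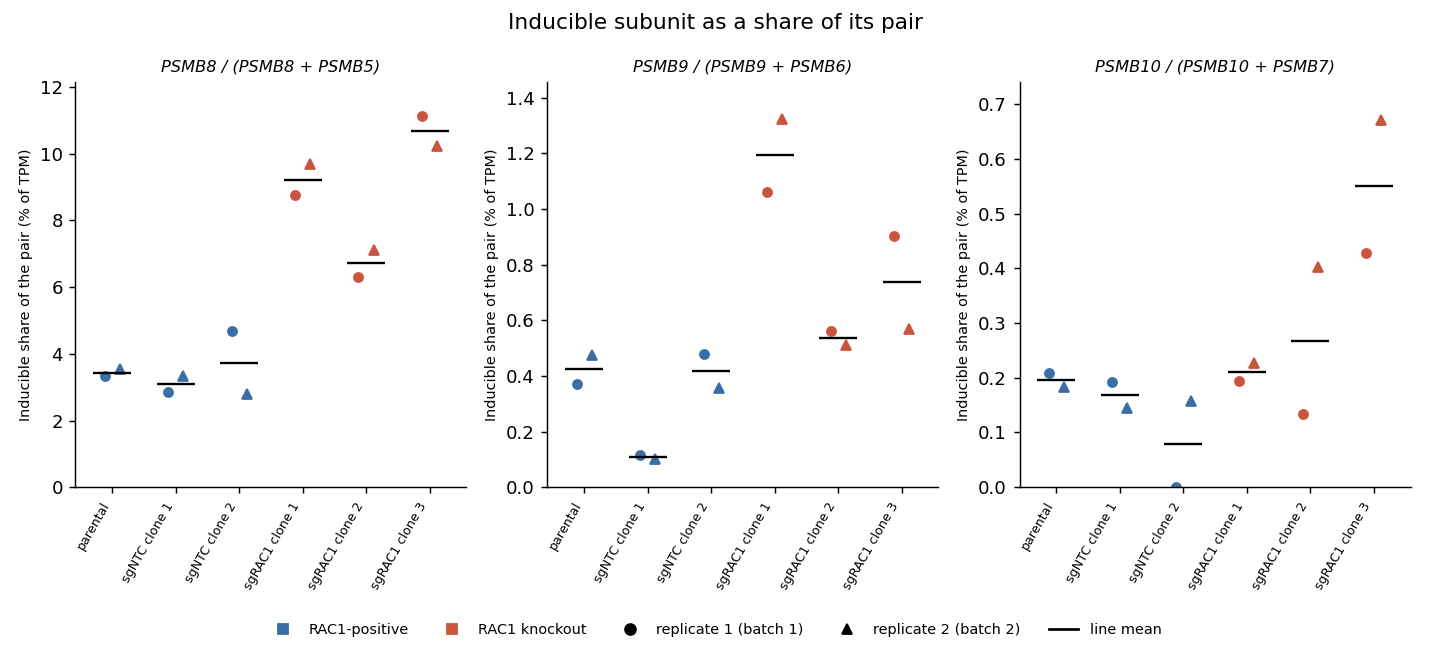
Inducible subunit as a share of the TPM of its pair (percent, linear axes from 0) in each library, by line, with line means as bars. The share of PSMB8 was 3.37% on average in RAC1-positive and 8.90% in knockout lines, and the axes of the 3 panels differ because the shares of PSMB9 and PSMB10 were about or below 1%.

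PSME1 and PSME2, the subunits of the activator ring, were the most abundant of the 10 genes and differed little between genotypes. PSME1 ran from 146 through 155 to 193 TPM in RAC1-positive libraries and from 156 through 179 to 247 TPM in knockout libraries. PSME2 ran from 78.5 through 87.7 to 95.0 TPM and from 85.4 through 95.2 to 124 TPM. The genotypes overlapped for both. The differences were 0.23 (SE 0.13, limma adjusted p 0.491) for PSME1 and 0.17 (SE 0.09, limma adjusted p 0.477) for PSME2. The PSME2 difference was 0.086 without sgRAC1 clone 3 replicate 1 and 0.26 without its replicate 2. For both genes the 2 highest libraries were sgRAC1 clone 1 replicate 2 and clone 3 replicate 1.

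TAP1 and TAP2 together form the peptide pump, and neither separated the genotypes. TAP1 ran from 2.38 through 4.50 to 8.06 TPM in RAC1-positive and from 3.22 through 6.33 to 7.78 TPM in knockout libraries, with the highest value of all in parental replicate 2. Its difference was 0.27 (SE 0.22, limma adjusted p 0.630). With 1 library left out it ran from 0.10 without parental replicate 1 to 0.45 without parental replicate 2, and it was 0.16 without sgNTC clone 1 replicate 1 and 0.42 and 0.13 without replicate 1 and 2 of sgRAC1 clone 2. TAP2 ran from 1.60 through 2.98 to 4.24 TPM and from 2.59 through 2.94 to 4.30 TPM. Its difference of 0.06 (SE 0.19, limma adjusted p 0.924) turned to -0.07 in batch 2 alone and to -0.08 without sgNTC clone 2 replicate 1, and the authors' deposited table gives -0.09 (adjusted p 0.878).

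TAPBP, which bridges the pump and the class I molecule, varied more among lines of 1 genotype than between genotypes. It was at 24.0 and 35.6 TPM in the parental libraries, 16.9 and 20.8 in sgNTC clone 1, and 12.1 and 20.4 in sgNTC clone 2. In the knockout libraries it was at 21.1 and 25.6 TPM in clone 1, 17.0 and 21.0 in clone 2, and 33.2 and 34.1 in clone 3. The parental cells and sgRAC1 clone 3 were thus the high lines and the other 4 lines the low ones. Line means were 25.3 ± 7.54 against 21.6 ± 7.18 TPM, a difference of 0.25 (SE 0.28, limma adjusted p 0.727) that was 0.40 in batch 1, 0.09 in batch 2, 0.13 without sgNTC clone 2 replicate 1 and 0.15 without parental replicate 1.

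The 2 trimming peptidases of the endoplasmic reticulum were both higher in every knockout line mean. ERAP2, which prefers substrates with basic N-terminal residues, was at 7.59 and 8.96 TPM in the parental libraries, 5.11 and 4.90 in sgNTC clone 1, and 8.27 and 6.75 in sgNTC clone 2. It was at 15.7 and 22.0 TPM in sgRAC1 clone 1, 12.1 and 14.0 in clone 2, and 16.3 and 16.8 in clone 3, so the groups did not overlap. Line means were 16.1 ± 2.91 against 6.93 ± 1.71 TPM (SD, n = 3 each), a difference of 1.12 (SE 0.21). The limma adjusted p was 0.150 over line means and 0.00612 over libraries (0.0112 with the replicate block), and the authors' deposited table gives a log2 fold change of 1.25 with adjusted p 1.04e-10. Batch 1 alone gave 0.99 and batch 2 alone 1.25.

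ERAP1, which trims longer precursors and is the more widely expressed of the 2 in human tissues, had the smaller difference. RAC1-positive libraries ran from 2.87 through 3.61 to 4.51 TPM and knockout libraries from 3.71 through 5.26 to 6.43 TPM. Line means did not overlap (5.24 ± 0.288 against 3.59 ± 0.298 TPM) but libraries did. The knockout library sgRAC1 clone 3 replicate 1, at 3.71 TPM, was below parental replicate 1 at 3.78 TPM and sgNTC clone 2 replicate 1 at 4.51 TPM. The difference was 0.43 (SE 0.15), with limma adjusted p of 0.306 over line means and 0.163 over libraries. The authors' deposited table gives 0.58 with adjusted p 0.0134. ERAP2 was the more abundant of the 2 peptidases in each of the 12 libraries, per length.

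**Figure D3:**
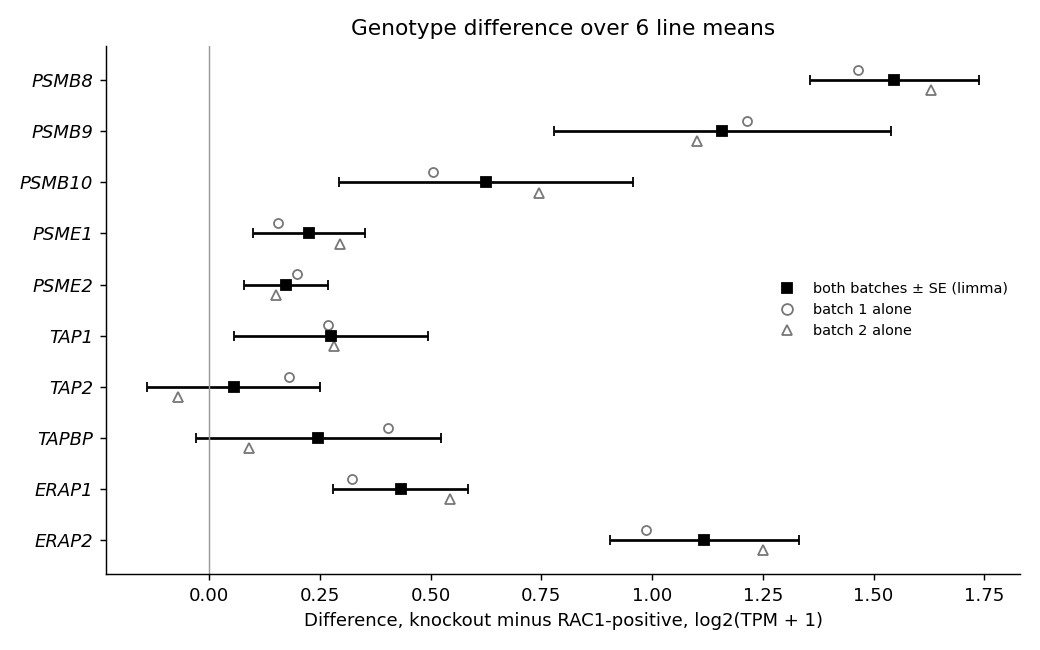
Difference between knockout and RAC1-positive lines (log2(TPM + 1), squares with SE from limma over 6 line means) for the 10 genes, with the difference within batch 1 (circles) and batch 2 (triangles). PSMB8, PSMB9 and ERAP2 exceed 0.98 in both batches, and TAP2 lies on both sides of 0.

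The 3 knockout clones were then each set against the mean of the RAC1-positive lines, with 12 libraries in 1 limma fit. These contrasts share their controls and measure the spread between the 2 cultures of a line. In sgRAC1 clone 1 PSMB8 rose by 1.49 (SE 0.19, limma adjusted p 0.0187) and ERAP2 by 1.33 (SE 0.18, limma adjusted p 0.0196), where 0.432% of genes passed as higher. In clone 3 PSMB8 rose by 1.95 (limma adjusted p 0.00312) and ERAP2 by 1.17 (limma adjusted p 0.0217), where 0.927% did. In clone 2 none of the 10 genes passed, where 0.167% of genes passed as higher (34 genes passed in either direction): PSMB8 was at 1.20 (limma adjusted p 0.0731) and ERAP2 at 0.85 (limma adjusted p 0.192), and 3 of the 10 (PSMB8, PSMB9 and ERAP2) had unadjusted p under 0.05, as did 1287 of the 17367 genes.

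These calls depended on single libraries. With 1 of the 12 libraries left out at a time, the clone 1 call of PSMB8 held in 6 of 12 cases and was lost without replicate 1 or 2 of sgRAC1 clone 1 or 2, without sgNTC clone 1 replicate 1 and without parental replicate 2, and its limma adjusted p ran from 0.0163 to 0.210. The clone 3 call of PSMB8 held in 11 of 12 and was lost without sgRAC1 clone 3 replicate 1 (limma adjusted p 0.0694). ERAP2 held in 2 of 12 cases for clone 1 (without either library of sgNTC clone 2) and in 4 of 12 for clone 3 (those and without either library of sgRAC1 clone 1), with limma adjusted p of up to 0.237 and 0.217. In clone 2 PSMB8 passed in 1 of 12, without sgNTC clone 2 replicate 2 (limma adjusted p 0.0415). PSMB9 passed in clone 1 without that same library (limma adjusted p 0.0395).

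Whether the clones differ from each other was tested for clones 2 and 3, which share a guide. No gene passed (0% of all genes), while 577 genes had unadjusted p under 0.05 in limma, among them PSMB8 (0.76, SE 0.23), PSME1 (0.42, SE 0.18) and TAPBP (0.80, SE 0.28), all with higher values in clone 3. Between the sgNTC clones and the parental cells 0.00576% of genes passed and none of the 10 did. The largest differences there were in TAPBP (-0.73, SE 0.24) and PSMB9 (-0.68, SE 0.28), which were the 2 of the 10 with unadjusted p under 0.05, as 680 of the 17367 genes had. An F test of any difference over the 6 lines called PSMB8 (limma adjusted p 0.0188), where 0.322% of genes passed, and ERAP2 was at limma adjusted p 0.0530. With 1 library left out the F test called PSMB8 in 3 of 12 cases (without either library of sgNTC clone 2 or without sgRAC1 clone 1 replicate 1), with limma adjusted p of 0.0105 to 0.0991.

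**Figure D4:**
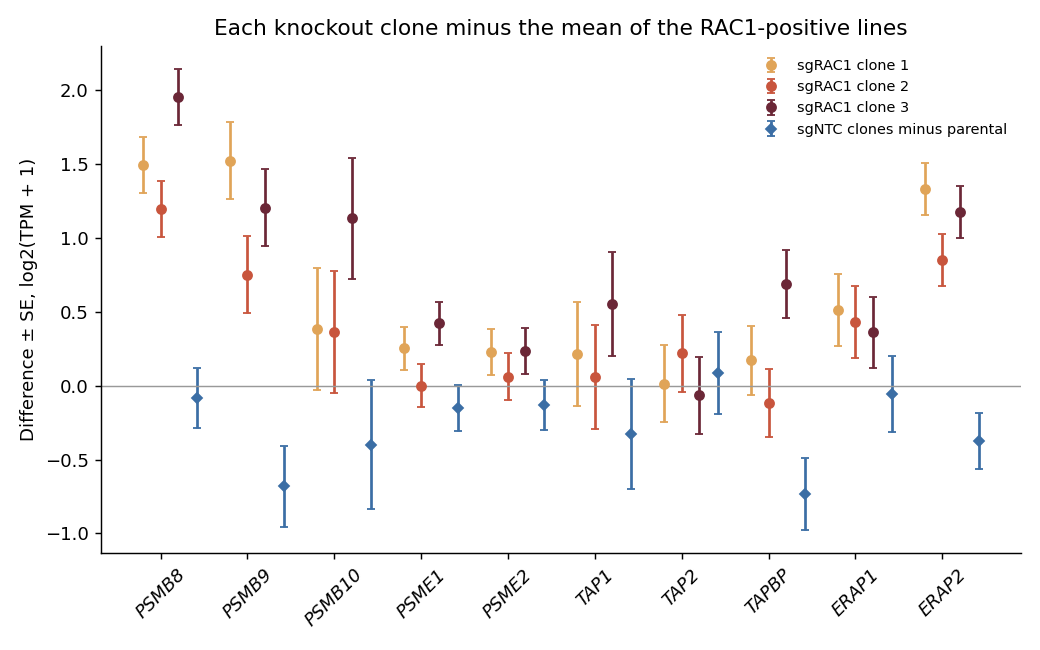
Difference (log2(TPM + 1), with SE from limma over 12 libraries) of each knockout clone from the mean of the 3 RAC1-positive lines, and of the sgNTC clones from the parental cells (diamonds), for the 10 genes. PSMB8, PSMB9 and ERAP2 lie above 0.7 in all 3 clones, and TAPBP is at 0.69 in clone 3 and between -0.12 and 0.17 in the other 2.

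Other genes of the same pathway were taken from lists of known parts and described by count. The class I chains and loading factors had a median difference of 0.63, with 9 of 10 genes higher on average. B2M, the class I light chain, was at 1367 ± 185 against 856 ± 69.7 TPM, HLA-C at 80.8 ± 23.8 against 36.7 ± 5.66 TPM, and HLA-B at 109 ± 23.3 against 58.1 ± 14.2 TPM. None of the 10 passed over line means in limma (6 had unadjusted p under 0.05), and these 3 passed over libraries (adjusted p 0.0124, 0.0143 and 0.0142 in limma). HLA-B, HLA-C, HLA-E, HLA-F and B2M were among those the authors' deposited table calls higher. The class I heavy chain genes are near-identical in places, so reads may be shared among them. CALR, CANX, PDIA3 and TAPBPL, which fold and edit class I molecules, were not among those called.

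Median differences in the rest of the proteasome were small, and most of its genes differed in the opposite direction to the immunoproteasome subunits. The median difference was -0.12 for the 11 other core subunits (9 lower on average, none called in limma by lines or libraries or in the authors' deposited table) and -0.09 for the 18 subunits and receptors of the regulatory cap (17 lower on average). In that cap list the authors' deposited table calls only ADRM1, a ubiquitin receptor, lower (-0.81, adjusted p 0.00554). ADRM1 also had the largest difference of the list over line means (-0.72, SE 0.29, limma adjusted p 0.368). Among 8 assembly factors and other activators the median was -0.12. PSMG3, an assembly chaperone, was at 68.4 ± 12.3 against 98.3 ± 9.40 TPM (-0.53, SE 0.15), with limma adjusted p of 0.246 over line means, 0.0410 over libraries and 0.0512 with the replicate block. Of 7 cytosolic and other peptidases found, with a median of -0.08, LAP3 and BLMH were lower in the authors' deposited table (-0.33 and -0.39, adjusted p 0.0301 and 0.0304). LAP3, itself an interferon-induced aminopeptidase, was at 137 ± 7.77 against 171 ± 8.27 TPM, the opposite direction to ERAP1 and ERAP2.

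Regulators of these genes showed smaller differences. Of 20 listed, 14 passed the level filter, with a median difference of 0.14, and none was called over lines or libraries in limma (2 had unadjusted p under 0.05 over lines). STAT2 was at 11.7 ± 2.87 against 7.90 ± 0.285 TPM and the interferon-gamma receptor chain IFNGR2 at 17.0 ± 0.827 against 13.0 ± 1.37 TPM. The kinase gene JAK1 was the 1 regulator higher in the authors' deposited table (0.37, adjusted p 0.0269). NLRC5, the class I transactivator, was at most 1.16 TPM and IRF1 at most 1.10 TPM in any library, and neither passed the level filter. NLRC5 averaged 0.770 TPM in knockout and 0.496 TPM in RAC1-positive lines, and IRF1 0.766 and 0.530 TPM. For both genes the libraries of the 2 genotypes overlapped. Of 8 interferon genes 7 were listed at 0 in all 12 libraries, IFNB1 and IFNG among them. IFNE was at 0 to 1.24 TPM in knockout and 0 to 0.584 TPM in RAC1-positive libraries. Its line means averaged 0.603 and 0.130 TPM, below the level filter.

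**Figure D5:**
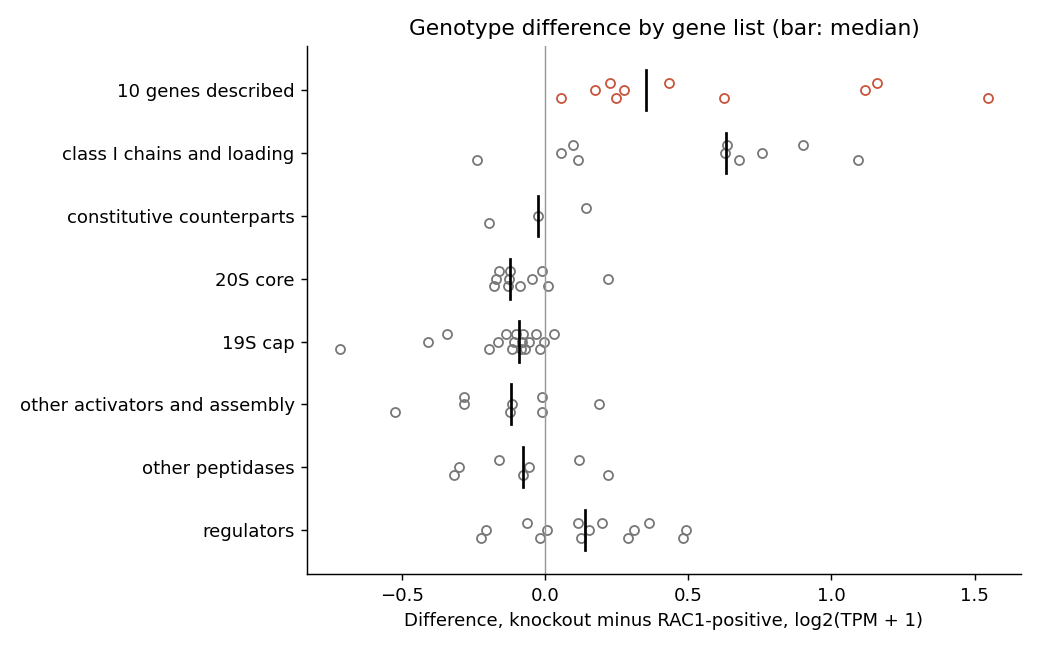
Difference between knockout and RAC1-positive lines (log2(TPM + 1)) for each gene kept, by list, with the list median as a bar. The medians are 0.35 for the 10 genes described, 0.63 for class I chains and loading factors, and between -0.12 and 0.14 for the other lists plotted.

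Blood cells hold immunoproteasomes without a stimulus, so their markers were read in the same libraries. The summed level of 10 blood cell markers was 0 to 2.42 TPM in RAC1-positive and 1.84 to 6.22 TPM in knockout libraries. The defining markers PTPRC, CD3E and MS4A1 were at 0 in all 12. CD53 averaged 0.795 TPM in knockout and 0.315 TPM in RAC1-positive lines, and LAPTM5 0.166 and 0 TPM. CORO1A went the other way, at 0.529 TPM in knockout and 0.604 TPM in RAC1-positive lines. CD14 was the 1 marker that passed the filter, and only through its knockout mean (1.79 against 0.440 TPM). It was at 0 to 1.08 TPM in RAC1-positive and 0.607 to 4.23 TPM in knockout libraries. Its 2 highest values were in sgRAC1 clone 3, the clone in which PSMB8 was highest. The authors' deposited table gives CD14 a mean of only 3.64 normalized counts and does not call it (adjusted p 0.119). Of 5 epithelial markers 4 were higher on average in knockout lines. EPCAM was at 43.8 ± 6.72 against 24.2 ± 2.10 TPM and CDH1 at 13.5 ± 4.13 against 3.98 ± 1.51 TPM, and both were called higher over libraries in limma (adjusted p 0.0184 and 0.0117). KRT18 was lower on average, at 129 ± 54.3 against 236 ± 124 TPM (-0.82, limma adjusted p 0.487 over line means). Their part in the results was not tested. The 5 fibroblast markers summed to at most 0.751 TPM.

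Outside the 10 genes, those whose pattern over the 12 libraries was most like the mean of the 10 (each centred on the log2(TPM + 1) scale) were HIST2H4B (Pearson r 0.97), TALDO1 (0.96), HIST2H2BE (0.96), HIST2H4A (0.96) and CTSA (0.95). The coefficients are across libraries that share lines, batches and genotype, and are given as a description. HIST2H4B and HIST2H4A encode the same histone and reads may be shared between them. TALDO1, an enzyme of the pentose phosphate pathway, was at 354 ± 35.3 against 265 ± 21.8 TPM, and CTSA, a lysosomal protease, at 76.3 ± 15.9 against 43.1 ± 5.23 TPM. None of the 5 passed over line means in limma.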

How the data were processed

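RNA from 12 DU145 libraries (6 lines, 2 biological replicates each) was sequenced from 160 ng of RNA per library, per the labels' protocols. STAR 2.6.1d, bcl2fastq, DESeq2 and the build GRCh38 appear in the submitters' processing notes. Counting, strand setting and annotation: not given in the sources used here. In 1 table the authors deposited TPM values for 56832 genes, and for 15140 of them a comparison with DESeq2's columns, per the file headers: a mean normalized count (a signal), p-values, and log2 fold changes with errors, all copied as deposited. TPM keeps no depth, so depth per library is unknown.

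Groups came from the labels. Values were taken as log2(TPM + 1), which understates changes of low genes, averaged per line and compared in limma 3.58.1 (R 4.3.3, variance trend, Benjamini-Hochberg) over the 17367 genes whose mean reached 1 TPM in knockout or RAC1-positive lines. Single lines were compared with 12 libraries in 1 fit, subunit ratios by exact permutation. Scripts were tested on simulated data that had the spread between libraries of a line but none between lines of a genotype. The members and lists were chosen with earlier results of these data known. Named genes were the members, RAC1, PSMB5, PSMB6 and PSMB7, the 3 genes of smallest p in each list, genes called in a list and the 5 most alike. NRD1 and PSMB8-AS1 were not matched by symbol. Some listed genes are not reported here singly.

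The labels give replicate number as batch, so fits with the replicate block were run. Deviations of same-numbered libraries of different genotype correlated at -0.074 to 0.10 over 18 pairs (median 0.017, 1 pair over 0.1). Alternatives were the unit of replication, the block, pseudocount, filter, scaling, each batch alone and each line or library left out. Leaving out libraries in the line fits was chosen after seeing the data. Promoter windows are RefSeq's for GRCh38.p14.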

Additional observations from a re-analysis of the deposited data

Results flagged for a closer look

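Of 20 groups of 6 libraries tested (10 genes in each genotype), 2 held a library far from the other 5, where chance flags about 1 in 20. PSMB10 was at 0 TPM in sgNTC clone 2 replicate 1 and at 1.63 to 2.27 TPM in the other 5 RAC1-positive libraries. TAP2 was at 4.30 TPM in sgRAC1 clone 2 replicate 1 and at 2.59 to 3.00 TPM in the other 5 knockout libraries.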

How the results depend on the processing

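The number of genes called over line means was 1, and 0 with a pseudocount of 0.1, no filter, either scaling or batch 1 alone, 2 with a pseudocount of 5, 3 with a filter of 5 TPM, 33 in batch 2 alone and 0 to 21 with a library or line left out (21 without sgNTC clone 2 replicate 1, 3 without sgNTC clone 1 replicate 2). Over 12 libraries it was 369, 320 with the replicate block and 620 without sgNTC clone 2 replicate 1. Of the 10 genes 2 were called in each of these 3 fits, and none in any other. PSMB8 and ERAP2 kept their direction in all 29 alternatives (1.34 to 1.72 and 0.82 to 1.25), as did PSMB9 (0.64 to 1.47). TAP2 (0.06) reversed in 7 of 28: -0.071 in batch 2 alone, -0.064 over libraries without sgNTC clone 2 replicate 1, and -0.082 to 0.19 with a library or line left out.

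In the fit of single lines, which used 12 libraries and the spread between the 2 cultures of a line, sgRAC1 clone 1 had 84 calls. With 1 library left out it had 25 to 313. Clone 2 had 34 calls, 18 with the replicate block, 10 with a pseudocount of 0.1 and 13 to 185 with 1 library left out. Clone 3 had 188 (28 to 670). Clone 3 against clone 2 had 0, and 7 with a pseudocount of 5 (0 to 7 with 1 library left out, 7 without sgRAC1 clone 2 replicate 2). The sgNTC clones against the parental cells had 1, and 2 with a pseudocount of 0.1 (0 to 193). The F test called 56 genes, and 85 with a pseudocount of 5 (10 to 892). The highest counts of these ranges came without sgNTC clone 2 replicate 2, other than clone 3 against clone 2. The causes were not tested. The replicate block changed no other call of the 10 genes. The 3 subunit ratios kept their direction throughout, and the PSMB10 ratio has no value in batch 1 alone or without sgNTC clone 2 replicate 2, where its line is at 0. Depth is unknown; the mean normalized counts in the authors' deposited table were lowest for PSMB10 (7.18), PSMB9 (26.3), TAP2 (34.0) and TAP1 (43.0). Having 2 cultures per line limits the line fits.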

Other observations

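PSMB9 and TAP1 are neighbours read in opposite directions, and their ratio varied over the libraries. This pair was chosen after its values were seen. The ratio of PSMB9 to TAP1 was 1.60 and 1.82 in the 2 libraries of sgRAC1 clone 1, 1.51 and 0.752 in clone 2, and 1.53 and 0.662 in clone 3. It was 1.06 and 0.495 in the parental libraries, 0.412 and 0.221 in sgNTC clone 1, and 0.626 and 0.819 in sgNTC clone 2. In batch 1 the knockout libraries were all above the RAC1-positive ones, and in batch 2 clones 2 and 3 overlapped with sgNTC clone 2.

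Beyond PSMB8 and PSMB9, other genes of the class II region were read. HLA-DMA, which loads class II molecules, was at 15.4 ± 7.87 TPM in knockout and 3.61 ± 0.838 TPM in RAC1-positive lines (SD, n = 3 each), and its 6 knockout libraries (9.36 to 30.3 TPM) were above the 6 others (1.90 to 4.95 TPM). The difference was 1.75 (SE 0.32), with limma adjusted p of 0.150 over line means and 0.00728 over libraries, and the authors' deposited table gives 2.02 with adjusted p 1.20e-07. HLA-DMB was at 0.490 to 1.58 TPM in knockout and at most 0.251 TPM in RAC1-positive libraries. BRD2, a chromatin reader in the same region, was at 15.0 ± 1.66 against 15.0 ± 0.579 TPM.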
